A study of Mus musculus with 24 samples.

Results

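Of the 14922 genes in the expression table of cultured mouse neural stem cells (NSCs), 35 were taken as glutamate and GABA receptor genes. They were chosen by symbol alone, from names that begin with Gria, Grik, Grin, Grm or Grid and a number, with Gabr and a subunit letter, or that read Gabbr1 or Gabbr2. The names gave 22 glutamate receptor genes, 12 GABA receptor genes and Grid2ip, which encodes delphilin, a scaffold protein that binds the delta receptor and entered by its name only. In the RefSeq annotation of GRCm38.p6, 48 symbols match the same pattern, and the other 13 were not analysed here. Levels are the deposited log2 CPM, based on the reads of a gene in every 1000000 reads of its library. The authors' batch correction shifts each gene by a constant in each batch, so 0 does not stand for 1 CPM of reads. For example, Grin2a had 0.682 CPM from its reads in 1 library where its level was 0.58. Values given below as CPM or CPM per kb are from reads without this correction. The mean deposited level over the 22 libraries used was above 0 for 23 of the genes and at or below 0 for 12.

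The NSC lines were derived from the cortex of female embryos and grown for fewer than 10 passages, and 100 ng of their RNA went into each polyA library. FVB_WT (5 lines, 6 libraries) and FVB_MD43 (4 lines, 5 libraries) were on the FVB/NJ background, wild type or homozygous for MommeD43, an ENU-induced allele of Smchd1, the gene of an epigenetic silencer of the inactive X chromosome and of gene clusters. B6GFP_WT (4 lines, 6 libraries) and B6GFP_MD43 (4 lines, 5 libraries) were C57BL/6J and carried a Smchd1-GFP fusion, wild type or homozygous for MommeD43 made by CRISPR/Cas9 editing. Strain and the GFP fusion change together in these groups, so a difference called a strain difference below cannot be told apart from an effect of the fusion. The comparisons ask whether the receptor genes differ with the allele within each strain, and between the strains within each genotype.

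Ionotropic glutamate receptors are cation channels built from subunits of the same family (AMPA, kainate or NMDA), and metabotropic glutamate receptors act through G proteins. GABA A receptors are chloride channels of alpha, beta and a further subunit such as gamma, and the GABA B receptor is a G protein coupled pair of Gabbr1 and Gabbr2. In progenitors with high internal chloride GABA depolarises the cell, and both transmitters influence proliferation and differentiation in the developing cortex.

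The libraries held 30.8 to 52.2 M (1000000) recovered reads in batch 1, 7.95 to 10.97 M in batch 2 and 23.98 to 55.8 M in batch 3. Batch 1 held lines of both strains, batch 2 held FVB lines only and batch 3 held B6GFP lines only, so the strain comparison rests on batch 1. A pair of deposited columns equalled the mean of their group mates and was left out. Smchd1 was at 7.27 ± 0.12 log2 CPM in FVB_WT, 7.36 ± 0.07 in FVB_MD43, 6.96 ± 0.28 in B6GFP_WT and 7.16 ± 0.19 in B6GFP_MD43 (SD over 5, 4, 4 and 4 lines), and a change of single bases or a small edit does not show in such levels. Markers of NSCs and radial glia were present in every library, with a summed level of 4972 to 7374 CPM. A pair of libraries of batch 3 stood apart and had low weights in the fit, B6GFP_MD43 replicate 2 (weight 0.158) and B6GFP_WT replicate 4 (weight 0.101, against a highest weight of 4.90). Fewer cells of a type and less RNA per cell cannot be told apart in these bulk cultures. In the level sentences below, each value is a mean ± SD of log2 CPM over the lines of a group, with repeat libraries of a line averaged first, and n is 5, 4, 4 and 4 lines in FVB_WT, FVB_MD43, B6GFP_WT and B6GFP_MD43.

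The receptor genes formed a wide range of levels, led by metabotropic receptor 5 and a set of AMPA and kainate subunits. All 4 AMPA and all 5 kainate genes had a mean above 0 log2 CPM, as did 4 of 5 NMDA, 2 of 6 metabotropic, 5 of 10 GABA A and both GABA B genes. Compared per length (CPM for each kilobase of exon, over the 10 libraries of batch 1), Grm5 was highest with a median of 36.3 (33.7 to 38.7) CPM per kb, lowest to highest library in parentheses. Grik5 at 19.97 (18.2 to 23.1), Gria2 at 19.4 (14.04 to 23.6) and Grm3 at 13.2 (7.82 to 16.8) followed on this scale, and the ranges of Grik5 and Gria2 overlapped. Gabbr1 at 10.3 (6.52 to 13.9), Grin2c at 9.02 (5.30 to 13.1), Gria3 at 7.14 (6.03 to 10.7) and Gabrg1 at 6.61 (5.54 to 8.14) CPM per kb came next, with overlapping ranges. Gria4 at 4.94 (3.47 to 7.56), Grik3 at 4.80 (2.37 to 8.26) and Grin3a at 3.48 (3.10 to 4.65) CPM per kb stood below them, and every other receptor gene had a median under 3 CPM per kb. The NMDA genes Grin2b at 0.0673 (0.0152 to 0.150) and Grin2a at 0.0567 (0.0149 to 0.167) CPM per kb were near the low end.

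**Figure D1:**
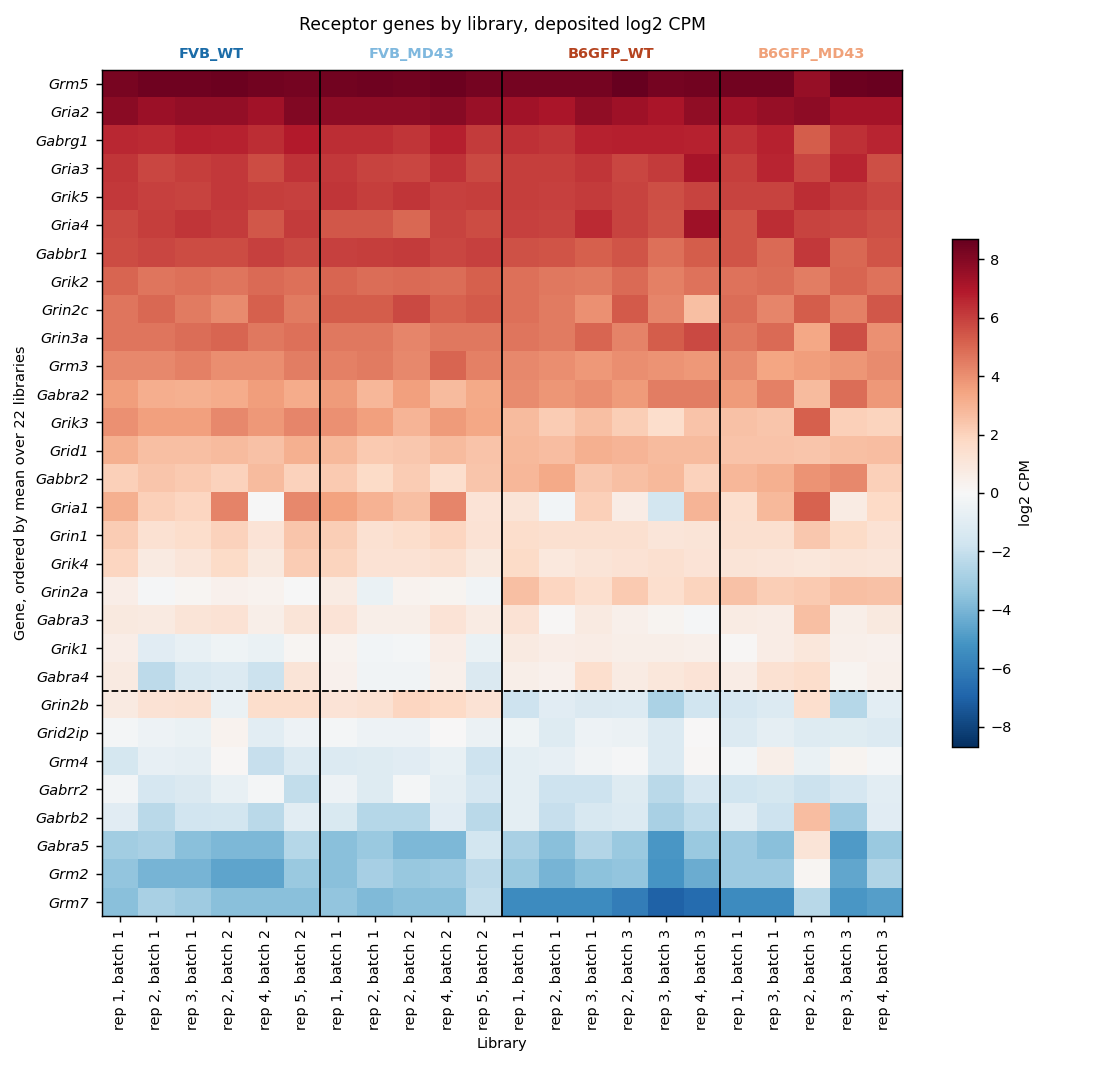
Heat map of the deposited log2 CPM of 30 of the genes (rows, ordered by their mean, dashed line at 0) in the 22 libraries (columns, by group and batch). Grm5 is at the top in every group. Below the dashed line, Gabrb2 and Gabra5 are highest in the B6GFP_MD43 library of replicate 2 in batch 3, and Grin2b, Grid2ip, Grm4 and Gabrr2 in other libraries.

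AMPA receptors carry most fast excitatory transmission, and Gria2 is the subunit that makes the channel impermeable to calcium once its transcript is edited. Gria2 (Entrez 14800, chr3:80681450-80804227, GRCm38) was the AMPA gene with the highest level, at 7.68 ± 0.30 in FVB_WT, 7.75 ± 0.18 in FVB_MD43, 7.41 ± 0.21 in B6GFP_WT and 7.43 ± 0.24 in B6GFP_MD43. Gria3 (Entrez 53623, chrX:41400819-41678601), on the X chromosome, was at 6.02 ± 0.23 in FVB_WT, 6.001 ± 0.23 in FVB_MD43, 6.32 ± 0.58 in B6GFP_WT and 6.02 ± 0.44 in B6GFP_MD43. Gria4 (Entrez 14802, chr9:4417893-4796234) was at 5.91 ± 0.32 in FVB_WT, 5.54 ± 0.30 in FVB_MD43, 6.30 ± 0.70 in B6GFP_WT and 5.77 ± 0.26 in B6GFP_MD43, and the wide spread in B6GFP_WT comes with 1 line at 7.34. Gria1 (Entrez 14799, chr11:57011571-57330244) was the least even member, at 2.47 ± 1.61 in FVB_WT, 2.94 ± 1.31 in FVB_MD43, 1.15 ± 1.30 in B6GFP_WT and 2.52 ± 1.76 in B6GFP_MD43. Its libraries ran from -0.01 to 4.32 with a median of 2.57 in FVB_WT and from -1.59 to 2.99 with a median of 0.91 in B6GFP_WT, and the 5 lines sequenced in both batches of their strain differed between their repeats by a median of 2.11 for this gene. The corresponding median over the 23 higher genes was 0.253.

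Kainate receptors are built from low-affinity subunits (Grik1, Grik2, Grik3) and high-affinity subunits (Grik4, Grik5) that need the former to form a channel. The high-affinity Grik5 (Entrez 14809, chr7:25009849-25075694) was at 5.998 ± 0.10 in FVB_WT, 6.07 ± 0.11 in FVB_MD43, 5.93 ± 0.08 in B6GFP_WT and 6.03 ± 0.28 in B6GFP_MD43. Grik2 (Entrez 14806, chr10:49093680-49790161) was at 4.85 ± 0.14 in FVB_WT, 5.02 ± 0.16 in FVB_MD43, 4.68 ± 0.16 in B6GFP_WT and 4.72 ± 0.22 in B6GFP_MD43. Grik3 (Entrez 14807, chr4:125490259-125714173) was at 3.88 ± 0.24 in FVB_WT, 3.58 ± 0.33 in FVB_MD43, 2.38 ± 0.31 in B6GFP_WT and 2.99 ± 1.52 in B6GFP_MD43, with both FVB groups above both B6GFP groups on average. Grik4 (Entrez 110637, chr9:42518182-42945000) was at 1.44 ± 0.57 in FVB_WT, 1.35 ± 0.44 in FVB_MD43, 1.28 ± 0.25 in B6GFP_WT and 1.07 ± 0.05 in B6GFP_MD43, and Grik1 (Entrez 14805, chr16:87895901-88290863) was the lowest kainate gene, at -0.25 ± 0.58 in FVB_WT, 0.02 ± 0.50 in FVB_MD43, 0.58 ± 0.16 in B6GFP_WT and 0.49 ± 0.36 in B6GFP_MD43.

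NMDA receptors need the obligate subunit Grin1 together with Grin2 or Grin3 subunits, of which Grin2b is the usual partner in the embryonic brain. Grin2c (Entrez 14813, chr11:115249169-115267297) and Grin3a (Entrez 242443, chr4:49661611-49846023) were the NMDA genes with most reads, at 4.70 ± 0.27 in FVB_WT, 5.32 ± 0.14 in FVB_MD43, 4.13 ± 1.07 in B6GFP_WT and 4.96 ± 0.49 in B6GFP_MD43 for Grin2c. Grin3a was at 4.74 ± 0.13 in FVB_WT, 4.54 ± 0.09 in FVB_MD43, 4.999 ± 0.60 in B6GFP_WT and 4.29 ± 0.81 in B6GFP_MD43. The obligate Grin1 shares 13.5% of its exon bases with the antisense gene Grin1os, and the sources used here do not say whether strand was used in counting, so reads of the pair cannot be told apart. Grin1 (Entrez 14810, chr2:25291177-25319187) was lower than either on the per-length scale, with a median of 0.652 (0.608 to 1.15) CPM per kb against 9.02 (5.30 to 13.1) for Grin2c, and these ranges did not overlap. Its level was 1.80 ± 0.50 in FVB_WT, 1.66 ± 0.41 in FVB_MD43, 1.33 ± 0.19 in B6GFP_WT and 1.63 ± 0.48 in B6GFP_MD43. Grin2a (Entrez 14811, chr16:9567901-9996083) was at 0.24 ± 0.24 in FVB_WT, 0.12 ± 0.44 in FVB_MD43, 2.02 ± 0.48 in B6GFP_WT and 2.43 ± 0.15 in B6GFP_MD43, and Grin2b (Entrez 14812, chr6:135713221-136173615) at 1.10 ± 0.51 in FVB_WT, 1.44 ± 0.26 in FVB_MD43, -1.66 ± 0.41 in B6GFP_WT and -0.69 ± 1.48 in B6GFP_MD43.

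The delta receptors bind synaptic organisers of the cerebellin family, and Grid1 (Entrez 14803, chr14:34820003-35583387) was at 2.82 ± 0.27 in FVB_WT, 2.58 ± 0.24 in FVB_MD43, 2.83 ± 0.06 in B6GFP_WT and 2.52 ± 0.12 in B6GFP_MD43. Of the metabotropic receptors, Grm5 (Entrez 108071, chr7:87583981-88135063), which couples to phospholipase C, was at 8.38 ± 0.09 in FVB_WT, 8.42 ± 0.07 in FVB_MD43, 8.39 ± 0.07 in B6GFP_WT and 8.25 ± 0.45 in B6GFP_MD43. Grm3 (Entrez 108069, chr5:9485236-9725352), which lowers cyclic AMP, was at 4.24 ± 0.18 in FVB_WT, 4.55 ± 0.36 in FVB_MD43, 3.96 ± 0.17 in B6GFP_WT and 3.88 ± 0.28 in B6GFP_MD43. The mean levels of the other 4 metabotropic genes, Grm2, Grm4 and Grm7 among them, were below 0 log2 CPM.

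Among GABA A receptor genes, Gabrg1 and Gabra2 were the highest gamma and alpha genes. Gabrg1 (Entrez 14405, chr5:70751047-70842617) was at 6.65 ± 0.19 in FVB_WT, 6.40 ± 0.28 in FVB_MD43, 6.57 ± 0.17 in B6GFP_WT and 6.20 ± 0.62 in B6GFP_MD43. Gabra2 (Entrez 14395, chr5:70958392-71095849) was at 3.35 ± 0.26 in FVB_WT, 3.27 ± 0.39 in FVB_MD43, 4.16 ± 0.27 in B6GFP_WT and 3.70 ± 0.78 in B6GFP_MD43. The further alpha genes were lower, with Gabra3 (Entrez 14396, chrX:72432676-72656919, on the X chromosome) at 0.92 ± 0.25 in FVB_WT, 0.92 ± 0.35 in FVB_MD43, 0.48 ± 0.57 in B6GFP_WT and 1.19 ± 0.97 in B6GFP_MD43 and Gabra4 (Entrez 14397, chr5:71569734-71658308) at -0.62 ± 1.44 in FVB_WT, -0.18 ± 0.80 in FVB_MD43, 0.88 ± 0.39 in B6GFP_WT and 0.84 ± 0.47 in B6GFP_MD43. Gabbr1 (Entrez 54393, chr17:37045966-37074305), the subunit of the GABA B receptor that binds GABA, was at 5.76 ± 0.11 in FVB_WT, 5.93 ± 0.10 in FVB_MD43, 5.32 ± 0.25 in B6GFP_WT and 5.52 ± 0.48 in B6GFP_MD43. Gabbr2 (Entrez 242425, chr4:46662318-46991714), the subunit that couples to the G protein, was at 2.26 ± 0.30 in FVB_WT, 2.03 ± 0.41 in FVB_MD43, 2.60 ± 0.41 in B6GFP_WT and 3.11 ± 0.82 in B6GFP_MD43. Per length, Gabbr1 had a median of 10.3 (6.52 to 13.9) CPM per kb and Gabbr2 of 0.752 (0.464 to 1.40), with no overlap between their ranges.

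GABA A genes lie in clusters, and the levels differed within the cluster on chromosome 5. Gabrg1, Gabra2 and Gabra4 lie within 907 kb of chromosome 5 (chr5:70751047-71658308), all on the minus strand, and their per-length medians were 6.61 (5.54 to 8.14), 1.05 (0.599 to 1.71) and 0.254 (0.0289 to 0.505) CPM per kb, with no overlap between the ranges of neighbours. The promoters of the chromosome 5 genes (RefSeq, GRCm38.p6, 250 bases before to 50 after the start, minus strand) are shown because the 3 neighbours differ in level, with each CpG dinucleotide (letters CG) in capitals.
Gabrg1 (chr5:70842568-70842867): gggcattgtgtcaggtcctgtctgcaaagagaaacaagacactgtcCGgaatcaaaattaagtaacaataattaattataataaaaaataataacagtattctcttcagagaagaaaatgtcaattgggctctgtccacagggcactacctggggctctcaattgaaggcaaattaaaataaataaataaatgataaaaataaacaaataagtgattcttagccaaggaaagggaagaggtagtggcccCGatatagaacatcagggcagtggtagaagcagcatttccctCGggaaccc
Gabra2 (chr5:71095800-71096099): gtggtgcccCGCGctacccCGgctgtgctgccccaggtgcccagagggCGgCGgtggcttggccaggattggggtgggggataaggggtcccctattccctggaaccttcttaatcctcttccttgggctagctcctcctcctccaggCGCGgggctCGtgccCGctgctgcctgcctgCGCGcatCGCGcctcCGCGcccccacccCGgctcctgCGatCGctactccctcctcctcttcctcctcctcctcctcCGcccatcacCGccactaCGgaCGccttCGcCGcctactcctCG
Gabra4 (chr5:71658259-71658558): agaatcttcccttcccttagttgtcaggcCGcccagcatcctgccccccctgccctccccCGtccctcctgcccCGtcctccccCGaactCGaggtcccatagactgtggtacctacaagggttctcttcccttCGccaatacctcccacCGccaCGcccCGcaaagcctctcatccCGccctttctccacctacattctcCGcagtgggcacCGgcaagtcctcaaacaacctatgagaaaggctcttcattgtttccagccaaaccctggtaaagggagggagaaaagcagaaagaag
The window held 3 CpG for Gabrg1, 25 for Gabra2 and 12 for Gabra4, against a median of 7 over 32851 promoters. As many or more were held by 76.7% of all promoters for Gabrg1, 18.4% for Gabra2 and 39.6% for Gabra4. The gene with the highest level of the 3 had the fewest, but Gabra4, with the lowest level, did not have the most. A link between CpG count and level was not tested. A promoter of the same table was matched for 21 of the 35 genes.

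Between the strains, the wild-type lines differed in 10 of the 35 genes. 6 were higher in B6GFP_WT, among them Grin2a, Gabra4, Grik1, Gabra2 and Gabbr2, and Grin2b, Grm7, Grik3 and Gabbr1 were lower, by limma's moderated test with Benjamini-Hochberg adjustment over all 14922 genes (threshold 0.05). The share called over all genes was 41.1% (17.9% higher and 23.2% lower in B6GFP), so 10 of 35 is a smaller share than in the whole table. Between the MommeD43 lines 13 of 35 differed, 5 higher and 8 lower in B6GFP_MD43, against 34.4% of all genes (14.7% higher and 19.6% lower), a share close to that of the whole table. The median change over the members was -0.04 in wild type and -0.10 in MommeD43, and over all genes -0.02 and -0.03. In the sentences that follow, a change is B6GFP minus FVB on the log2 scale with its SE, and adjusted p is from this limma fit.

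**Figure D2:**
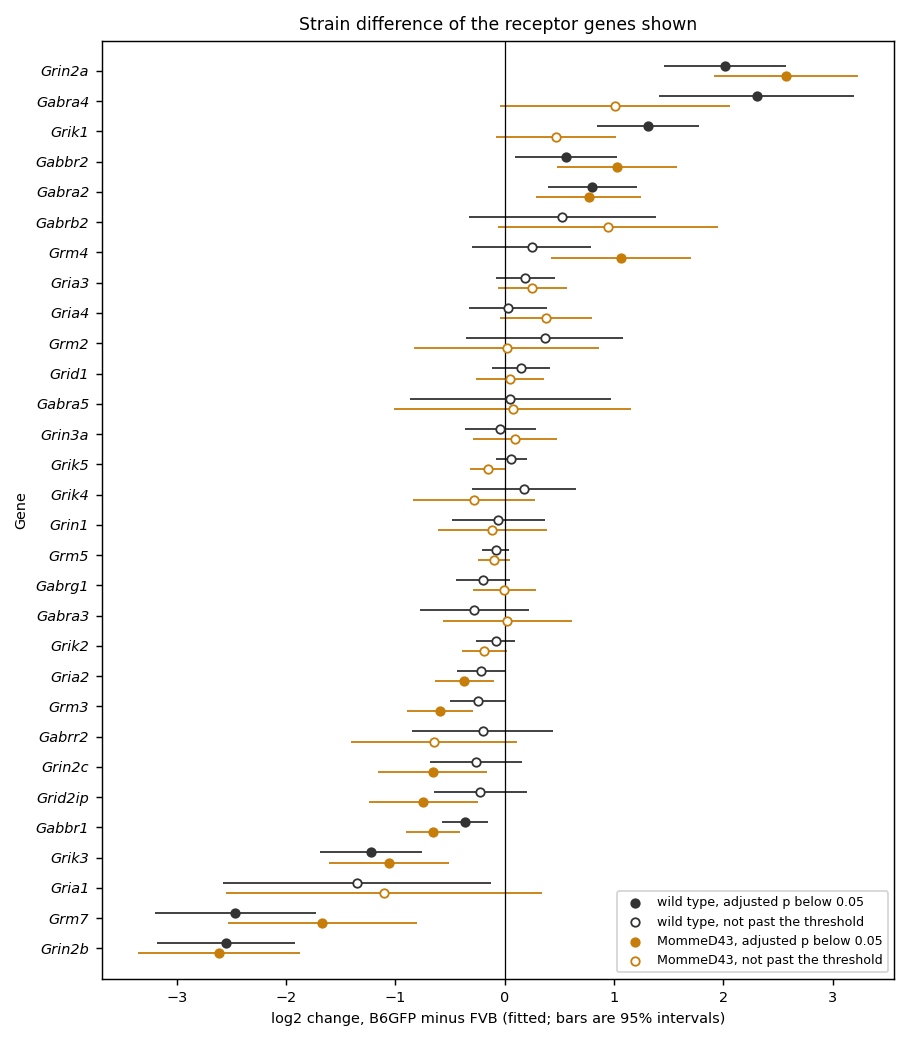
Fitted log2 change of 30 of the genes between the strains, B6GFP minus FVB, in wild-type and in MommeD43 lines, with 95% intervals as bars and filled points past the adjusted threshold of 0.05. Grin2b lies at -2.55 and -2.61 and Grin2a at 2.01 and 2.58, on opposite sides of 0.

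The NMDA subunits Grin2a and Grin2b moved in opposite directions. In batch 1, Grin2b was at 0.80, 1.27 and 1.30 log2 CPM in the FVB_WT libraries and at -1.81, -0.99 and -1.27 in the B6GFP_WT libraries. The FVB_MD43 libraries were at 1.18 and 1.30 and the B6GFP_MD43 libraries at -1.46 and -1.16, so the strains did not overlap in either genotype. The change was -2.55 ± 0.30 (adjusted p = 1.11e-06) in wild type and -2.61 ± 0.36 (adjusted p = 1.00e-05) in MommeD43, a fold of 0.170 and 0.164. Before the authors' batch correction, Grin2b had 2.63 to 3.72 CPM in FVB_WT and 0.378 to 0.711 in B6GFP_WT in batch 1. In batch 2 the FVB_WT libraries had 0.274 to 1.36 CPM, which overlapped the 0.601 to 1.94 CPM of B6GFP_WT in batch 3. In MommeD43 the medians of these batches went against the fit. They were 1.58 CPM (1.13 to 1.72) in FVB_MD43 and 2.25 (0.738 to 12.1) in B6GFP_MD43, with overlapping ranges. Line FVB_WT 2 gave 148 reads of 39.9 M in batch 1 and 3 of 10.97 M in batch 2.

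Grin2a was at 0.58, -0.11 and 0.20 log2 CPM in the FVB_WT libraries of batch 1 and at 2.62, 1.89 and 1.44 in those of B6GFP_WT. It was at 0.70 and -0.58 in FVB_MD43 and 2.58 and 2.14 in B6GFP_MD43. The B6GFP libraries were higher without overlap in both genotypes, with a change of 2.01 ± 0.27 (adjusted p = 5.27e-06) in wild type and 2.58 ± 0.32 (adjusted p = 2.74e-06) in MommeD43. The values rest on 21, 16 and 19 reads in FVB_WT and 127, 70 and 56 in B6GFP_WT. Over all batches and after the authors' correction, the FVB_WT libraries ran from -0.11 to 0.58 with a median of 0.25, and the B6GFP_WT libraries from 1.44 to 2.62 with a median of 1.90. Before correction, the 1.04 to 1.46 CPM of FVB_WT in batch 2 overlapped the 1.23 to 2.19 CPM of B6GFP_WT in batch 3. Grin2c, the NMDA gene with most reads, passed only between the MommeD43 lines, at 5.29 and 5.27 in FVB_MD43 and 4.87 and 4.21 in B6GFP_MD43 in batch 1. Before correction, its medians went the other way between batches 2 and 3, with overlapping ranges. They were 65.3 CPM (56.9 to 84.8) in FVB_MD43 and 135.9 (76.6 to 157.5) in B6GFP_MD43. The fitted change of Grin2c was -0.66 ± 0.24 (adjusted p = 0.0371) against -0.26 ± 0.20 (adjusted p = 0.320) in wild type. The difference between these changes was tested and gave an adjusted p of 0.9999. Grin1 and Grin3a did not pass, with changes of -0.06 and -0.04 in wild type. Grin1 passed between the MommeD43 lines without FVB_MD43 replicate 2, where its change went from -0.11 to -0.67 (adjusted p = 0.0134).

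Kainate genes split. Grik3 was at 3.96, 3.55 and 3.57 log2 CPM in FVB_WT and at 2.75, 2.21 and 2.65 in B6GFP_WT in batch 1. It was at 3.996 and 3.59 in FVB_MD43 and at 2.57 and 2.38 in B6GFP_MD43, with no overlap in either genotype. It was lower in B6GFP, with a change of -1.22 ± 0.22 (adjusted p = 1.99e-04) in wild type and -1.06 ± 0.26 (adjusted p = 0.00398) in MommeD43. The direction was the same in batches 2 and 3 before correction, at 39.7 to 55.01 CPM in FVB_WT and 3.85 to 7.42 in B6GFP_WT. Grik1 was at 0.57, -0.97 and -0.68 in FVB_WT and 0.80, 0.55 and 0.61 in B6GFP_WT. The FVB_WT library of replicate 1 was level with the B6GFP_WT libraries, and the change was 1.31 ± 0.22 (adjusted p = 9.51e-05). Before correction, the Grik1 medians went the other way between batches 2 and 3, at 1.82 CPM in FVB_WT and 1.58 in B6GFP_WT, with overlapping ranges. In MommeD43 the change of Grik1 was 0.47 ± 0.26 (adjusted p = 0.179), and the difference between the genotypes had an unadjusted p of 0.0169 and an adjusted p of 0.9999. Without B6GFP_MD43 replicate 1 the MommeD43 change of Grik1 was 0.74 and passed (adjusted p = 0.0152). Grik2, Grik4 and Grik5 passed in neither genotype with all lines, with changes between -0.28 and 0.18. All 3 passed between the MommeD43 lines without FVB_MD43 replicate 2, at -0.29 for Grik2 (adjusted p = 0.0147), -0.79 for Grik4 (adjusted p = 0.0197) and -0.27 for Grik5 (adjusted p = 0.00675). Grik2 and Grik5 also passed without B6GFP_MD43 replicate 3 (adjusted p = 0.0220 and 0.00683).

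The GABA A genes that passed were higher in B6GFP in every case. Gabra2 was at 3.61, 3.18 and 3.09 log2 CPM in FVB_WT and 4.14, 3.87 and 4.03 in B6GFP_WT in batch 1, without overlap, a change of 0.80 ± 0.20 (adjusted p = 0.00270). Among MommeD43 lines it was at 3.73 and 2.91 in FVB_MD43 and at 3.67 and 4.41 in B6GFP_MD43, which overlapped, and the change was 0.77 ± 0.23 (adjusted p = 0.0133). This last call was lost without FVB_MD43 replicate 2, where the change was 0.28 (adjusted p = 0.260). Before correction Gabra2 went the other way between batches 2 and 3, with 27.8 to 38.3 CPM in FVB_WT and 8.24 to 14.1 in B6GFP_WT.

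Gabra4, the neighbour of Gabra2, was at 0.77, -2.29 and -1.41 in FVB_WT and 0.54, 0.37 and 1.43 in B6GFP_WT, a change of 2.30 ± 0.43 (adjusted p = 2.23e-04). The FVB_WT library of replicate 1, with 59 reads, lay inside the B6GFP_WT range, and the other two FVB_WT libraries, with 7 and 14 reads, lay below it. In MommeD43 the change was 1.01 ± 0.50 (adjusted p = 0.128) and did not pass, but without B6GFP_MD43 replicate 1 it was 1.44 and passed (adjusted p = 0.0173). Gabrg1, the third gene of the chromosome 5 cluster, did not pass, with -0.20 (95% interval -0.45 to 0.05) in wild type and -0.003 (95% interval -0.30 to 0.29) in MommeD43. Gabra3 did not pass either, with changes of -0.28 and 0.02.

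The genes of the GABA B pair moved in opposite directions in the fit and in batch 1, but not between batches 2 and 3. Gabbr1 was at 5.65, 5.84 and 5.70 in FVB_WT and 5.57, 5.48 and 5.21 in B6GFP_WT in batch 1. It was at 5.95 and 6.05 in FVB_MD43 and 5.49 and 4.96 in B6GFP_MD43, so B6GFP was lower without overlap. The change was -0.36 ± 0.10 (adjusted p = 0.00692) in wild type, a call lost without FVB_WT replicate 2 (adjusted p = 0.0714), and -0.66 ± 0.12 (adjusted p = 2.29e-04) in MommeD43. Gabbr2 was at 2.10, 2.43 and 2.26 in FVB_WT and 2.87, 3.27 and 2.33 in B6GFP_WT, which overlapped. Its wild-type change of 0.56 ± 0.22 (adjusted p = 0.0496) lay at the threshold, and the call was lost when any of 10 lines was left out (adjusted p from 0.0614 to 0.563). These lines were FVB_WT 1, 2, 3 and 5, FVB_MD43 2 and 5, B6GFP_WT 1 and 2, and B6GFP_MD43 1 and 4. In MommeD43 Gabbr2 was at 2.30 and 1.70 in FVB and 2.86 and 3.07 in B6GFP, a change of 1.03 ± 0.26 (adjusted p = 0.00467). Before correction, neither gene kept its direction between batches 2 and 3 in either genotype. Gabbr2 had 9.05 to 15.8 CPM in FVB_WT in batch 2 and 2.57 to 4.54 in B6GFP_WT in batch 3. Gabbr1 had medians of 67.4 CPM in FVB_WT and 70.5 in B6GFP_WT there, with overlapping ranges. In MommeD43 the ranges of both genes overlapped between these batches.

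Of the metabotropic genes, Grm5 did not pass, with a change of -0.08 (95% interval -0.20 to 0.04) in wild type and -0.10 (95% interval -0.24 to 0.05) in MommeD43. Grm3 was at 4.40 and 4.52 in FVB_MD43 and 4.12 and 3.43 in B6GFP_MD43 in batch 1. It was lower in B6GFP_MD43, with a change of -0.59 ± 0.14 (adjusted p = 0.00331), and its wild-type change was -0.25 ± 0.12 (adjusted p = 0.115). Before correction, its medians were 16.2 CPM in FVB_MD43 in batch 2 and 16.9 in B6GFP_MD43 in batch 3, with overlapping ranges. Grm7 (Entrez 108073, chr6:110645349-111567230), a presynaptic autoreceptor, had 5, 14 and 10 reads in the FVB_WT libraries of batch 1 and 0 in each of the 3 B6GFP_WT libraries. Summed over the group, 29 reads of 108.0 M stood against 0 of 125.3 M, so Grm7 was at least 11.2-fold higher in FVB_WT, with 3 counts over the group as the limit, which covers counting error only. In MommeD43, 17 of 101.7 M against 0 of 73.5 M gave at least 4.10-fold. The B6GFP libraries of batch 3 held 0 to 90 Grm7 reads, and 5 of the 6 FVB libraries of batch 2 held 0. The fitted adjusted p was 1.28e-05 in wild type and 0.00385 in MommeD43. Grm4 (Entrez 268934, chr17:27422387-27513826), of the same metabotropic group, passed between the MommeD43 lines, at -1.22 and -1.12 in FVB_MD43 and -0.22 and 0.53 in B6GFP_MD43, a change of 1.06 ± 0.31 (adjusted p = 0.0107).

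The AMPA gene Gria2 passed between the MommeD43 lines, at 7.80 and 7.75 in FVB_MD43 and 7.32 and 7.57 in B6GFP_MD43, a change of -0.37 ± 0.13 (adjusted p = 0.0299). Grid2ip (Entrez 170935, chr5:143357330-143391779) was lower in B6GFP_MD43, at -1.21 and -0.79 against -0.17 and -0.44 in FVB_MD43, a change of -0.75 ± 0.24 (adjusted p = 0.0198). Both calls were lost without FVB_MD43 replicate 1, B6GFP_WT replicate 2, B6GFP_MD43 replicate 1 or B6GFP_MD43 replicate 4. The adjusted p then lay between 0.0675 and 0.163 for Gria2 and between 0.0582 and 0.0823 for Grid2ip. Of the lines left out in turn, B6GFP_WT replicate 3 alone brought Gria2 past the threshold in wild type, at -0.33 (adjusted p = 0.0134). Gria1, Gria3, Gria4 and Grid1 did not pass in either genotype with all lines, but each passed when some lines were left out. Between the MommeD43 lines Gria4 had a change of 0.38, and of 0.48 to 0.91 without FVB_MD43 replicate 2, B6GFP_WT replicate 2 or B6GFP_MD43 replicate 1 (adjusted p from 1.95e-04 to 0.0407). Gria3 had a change of 0.25, and of 0.42 to 0.63 without B6GFP_WT replicate 2 or B6GFP_MD43 replicate 1 or 4 (adjusted p from 8.44e-04 to 0.0432). Grid1 turned from 0.05 to -0.31 without FVB_MD43 replicate 2 (adjusted p = 0.0391). For Gria1 the wild-type change was -1.35 ± 0.59 (adjusted p = 0.0730), with an interval from -2.58 to -0.12, and it was -1.85 to -1.52 and passed without B6GFP_WT replicate 3, B6GFP_MD43 replicate 3 or FVB_WT replicate 4 (adjusted p from 0.0163 to 0.0442). Its MommeD43 change of -1.10 passed without B6GFP_MD43 replicate 3, at -1.60 (adjusted p = 0.0118).

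**Figure D3:**
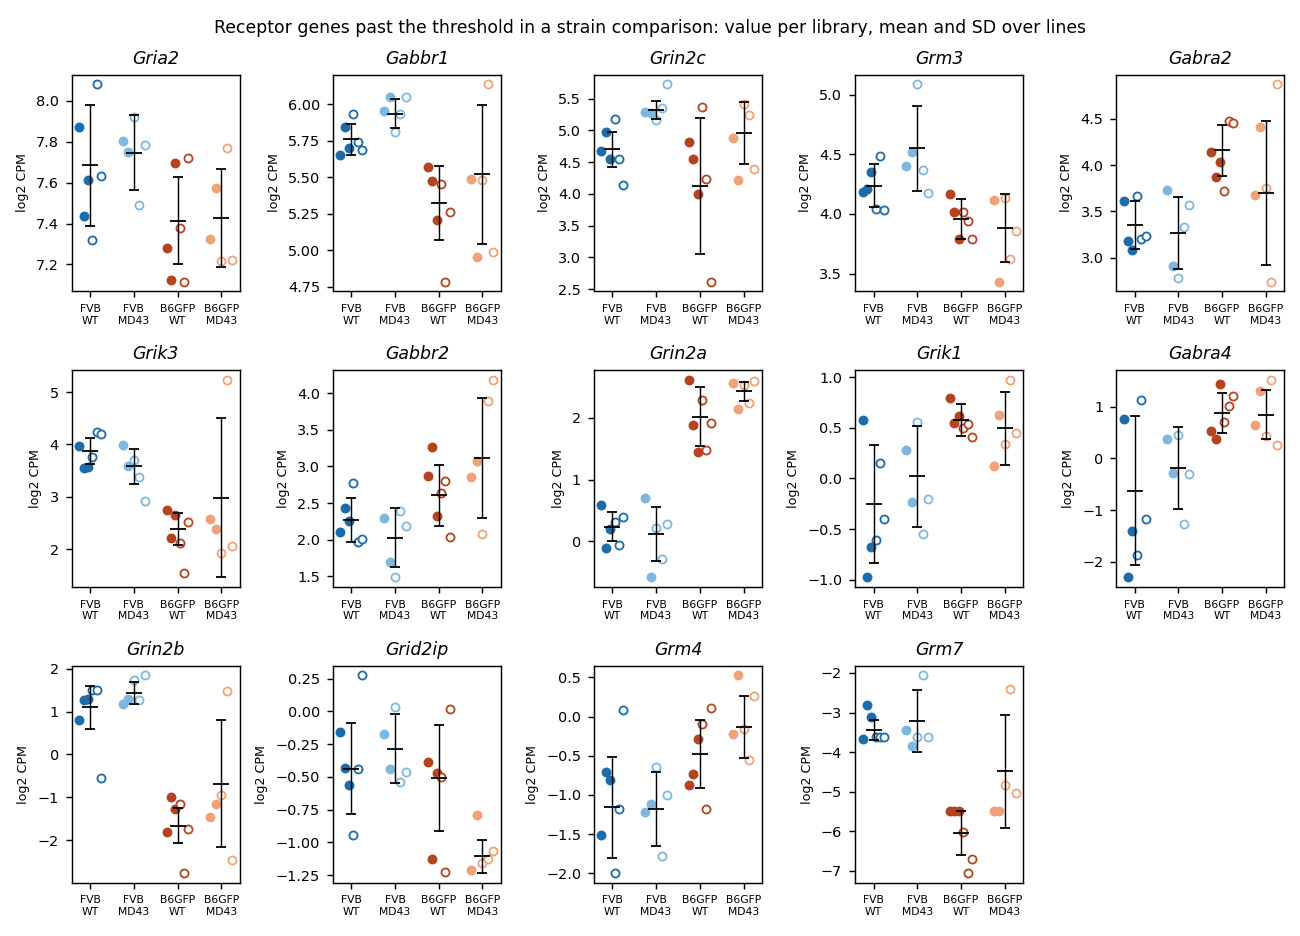
Deposited log2 CPM of 14 genes that passed a strain comparison, 1 point per library in FVB_WT, FVB_MD43, B6GFP_WT and B6GFP_MD43, with the mean and SD over lines as the bar. Grin2b, Grik3 and Gabbr1 sit higher in the FVB groups and Grin2a higher in the B6GFP groups on average, with 1 high B6GFP_MD43 point for Grin2b and Grik3.

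Within batch 1 the strains did not overlap for 8 of the 35 genes in wild type (3 libraries against 3), against 36.2% of all genes with recovered reads. In MommeD43 (2 against 2) they did not overlap for 22 of 35, against 64.8% of all genes, a share close to that of the whole table. These were 7 of the 10 called genes and 1 of the 25 others in wild type, and 12 of the 13 called genes and 10 of the 22 others in MommeD43. With batch 1 alone, 8 of the wild-type calls held (Gabbr1 and Gabbr2 were lost), and 8 of the MommeD43 calls (Gabbr2, Gabra2, Gria2, Grid2ip and Grin2c were lost). Over all 14922 genes, the calls went from 6131 to 5095 in wild type and from 5126 to 3596 in MommeD43. Between batches 2 and 3, which hold 1 strain each, the uncorrected CPM of the called genes had the same direction as the fit for 4 of 10 in wild type and 6 of 13 in MommeD43. There batch and strain cannot be told apart. Without array quality weights the counts fell to 3 in wild type (Grin2b, Grin2a and Grm7) and to 2 in MommeD43 (Grin2a and Grm3). Over all genes the calls fell as well, to 1259 in wild type and 1017 in MommeD43. With both libraries that stood apart left out, the counts were 10 and 13, and over all genes 6193 and 5220.

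Markers of several cell types were called between the strains, and their counts are read against the 41.1% of all genes called in wild type and 34.4% in MommeD43. Apart from the astrocyte list, the lists went both ways or had few members called. All 6 astrocyte markers were lower in B6GFP in both genotypes (median change -1.61 in wild type and -1.89 in MommeD43), with summed levels of 277 to 797 CPM in FVB_WT, 317 to 931 in FVB_MD43, 304 to 474 in B6GFP_WT and 363 to 425 in B6GFP_MD43. Of 8 oligodendrocyte lineage markers, 2 were higher and 2 lower in wild type and 2 higher and 3 lower in MommeD43. The myelin gene Mbp had a change of -4.49 in wild type. The sums of the 5 oligodendrocyte markers with recovered reads ran from 1930 to 3316 CPM in FVB_WT, 2036 to 3239 in FVB_MD43, 1476 to 2563 in B6GFP_WT and 1663 to 2688 in B6GFP_MD43. Of 11 neuron markers, 3 were higher and 2 lower in wild type and 4 higher and 1 lower in MommeD43, with sums of 789 to 1187, 800 to 1210, 702 to 873 and 794 to 1957 CPM in the same order of groups. NSC and radial glia markers were higher for 2 and lower for 5 of 8 in wild type, and higher for 2 and lower for 4 in MommeD43. Of the microglia list only P2ry12 was in the table, and it passed in neither genotype. Of 4 endothelial and mural markers 1 was lower in wild type and 0 passed in MommeD43, and of 4 fibroblast markers 1 was lower in each genotype. Gfap and Aqp4 were at 0 reads in 1 FVB_WT and 1 FVB_MD43 library each, and Neurod6 was at 0 in 3 of 6 FVB_WT, 3 of 5 FVB_MD43, 4 of 6 B6GFP_WT and 2 of 5 B6GFP_MD43 libraries. Whether these cell types play a part in the receptor differences was not tested.

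Between MommeD43 and wild type within FVB, none of the 35 genes passed the threshold, against 11 of 14922 genes (0.0737%). At an unadjusted p under 0.05 there were 12 receptor genes and 1024 of all genes. Voom on the recovered reads gave 0 receptor genes past the threshold and 15 at that unadjusted level, against 67 and 1553 of 14868 genes. Without array quality weights, 0 receptor genes and 151 of all genes were at that level, so the 12 depended on the weights. In the fit with weights, the smallest p was that of Gria4, with a change (MommeD43 minus wild type) of -0.58 ± 0.15 (adjusted p = 0.202). The FVB_WT libraries of Gria4 ran from 5.42 to 6.19 with a median of 6.07 log2 CPM, and the FVB_MD43 libraries were at 5.39, 5.40, 5.89, 5.69 and 5.02. Among the genes named here, next came Gabra4 with 1.38 ± 0.38 (adjusted p = 0.239) and Grin2c with 0.53 ± 0.18 (adjusted p = 0.420). The Gabra4 libraries ran from -2.29 to 1.12 with a median of -1.29 in FVB_WT and were at 0.38, -0.27, 0.44, -1.27 and -0.30 in FVB_MD43, so the groups overlapped. The result depended on 1 line. Without FVB_MD43 replicate 2, 7 genes passed, 6 of them higher in MommeD43 (Gabra4, Grik1, Grik2, Grik4, Grik5 and Grin1) and Gria4 lower, with adjusted p from 0.00462 to 0.0251. This line held the library with the highest weight in the fit (4.90). The share of all genes that passed without this line is not given here, so the 7 are not read as particular to receptor genes. With all lines, the median change over the 35 genes was 0.05, against 0.01 over all genes.

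Within B6GFP none passed, as for all genes (0 of 14922, or 0%). At an unadjusted p under 0.05 there was 1 receptor gene, Grid1, with a change of -0.34 ± 0.15 (adjusted p = 1), and 319 of all genes. Voom gave 0 receptor genes past the threshold and 3 at that unadjusted level, against 2 and 599 of 14868 genes. No line left out in turn brought a receptor gene past the threshold. For genes with steady levels the intervals were narrow, and Grm5 had a change of 0.02 (95% interval -0.09 to 0.13) in FVB and 0.005 (95% interval -0.14 to 0.15) in B6GFP. For Gria1 the interval was wide, at 0.94 (95% interval -0.15 to 2.02) in FVB and 1.18 (95% interval -0.23 to 2.59) in B6GFP. The X-linked genes gave 0.05 (95% interval -0.19 to 0.28) and 0.11 (95% interval -0.20 to 0.42) for Gria3 and -0.15 (95% interval -0.59 to 0.30) and 0.16 (95% interval -0.42 to 0.73) for Gabra3, in FVB and B6GFP.

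**Figure D4:**
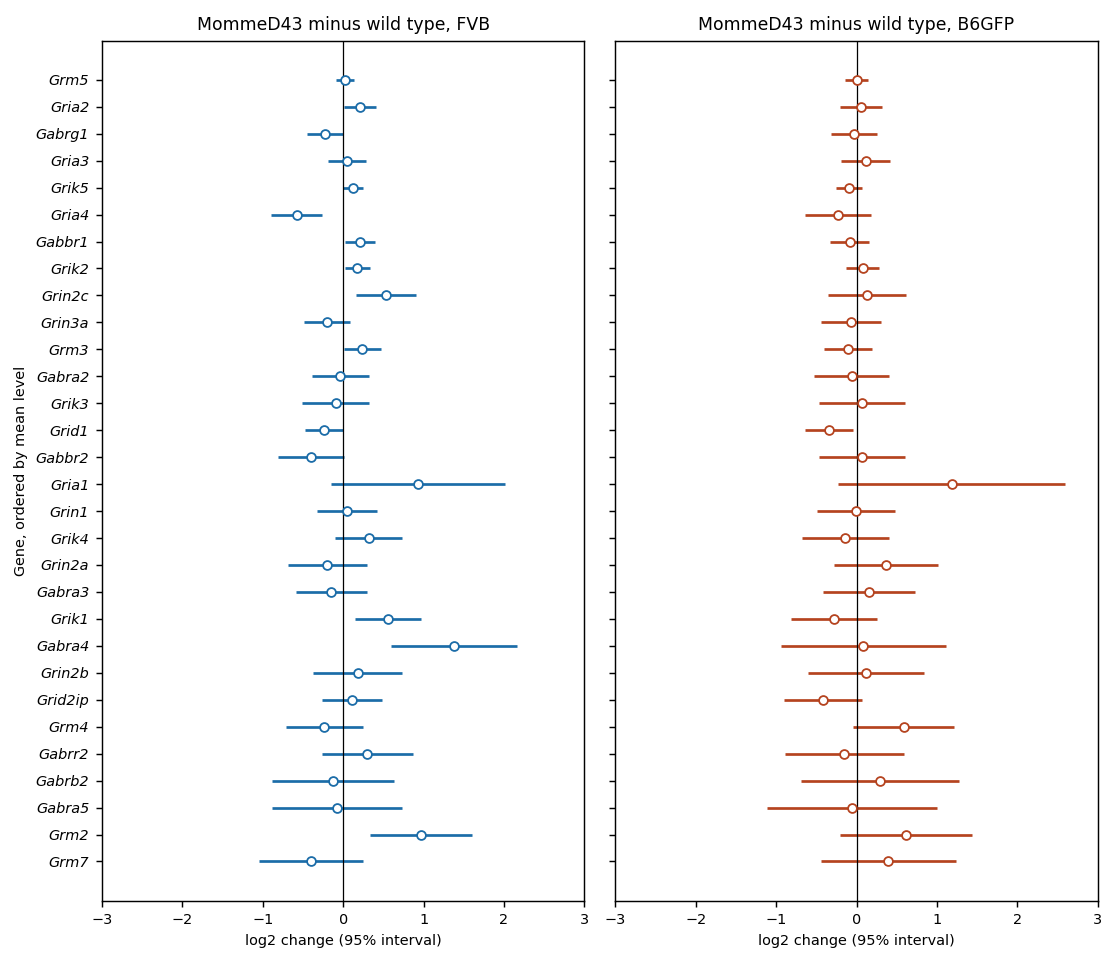
Fitted log2 change of 30 of the genes, MommeD43 minus wild type, in FVB and in B6GFP, with 95% intervals as bars. Every point is open, since none passed, and Gabra4 in FVB is the farthest to the right at 1.38.

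A test of whether the MommeD43 effect differed between the strains gave 0 receptor genes past the threshold by limma and by voom. Over all genes it gave 0 of 14922 by limma and 1 of 14868 by voom. At an unadjusted p under 0.05 limma gave 4 receptor genes (Grik1, Grik5, Grm4 and Gabra4) and voom 8. Over all genes, 458 of 14922 by limma and 791 of 14868 by voom were at that level. Gabra4 had the largest of these differences, -1.29 (95% interval -2.58 to -0.003) for B6GFP minus FVB, with an adjusted p of 0.9999. These comparisons share the 4 groups of libraries and are not independent of each other.

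The 12 genes at or below 0 log2 CPM were Grin2b, Grid2ip, Grm4 and Grm7, described with the strains, and 8 others whose means ran from -3.56 to -1.22. None of the latter that are named here passed between the strains with all lines, but in MommeD43 Gabrb2 passed without B6GFP_MD43 replicate 3 (1.22, adjusted p = 0.00422), and Gabrr2 without that line or FVB_MD43 replicate 2 (-0.77 and -1.10, adjusted p = 0.0249 and 0.0119). Before batch correction a single read was worth -5.80 to -2.99 log2 CPM, depending on the library, so several of these values rest on a handful of reads. In CPM before batch correction, 8 of the 12 were highest of all 22 libraries in B6GFP_MD43 replicate 2 of batch 3. The same held for 4 of the 23 higher genes (Grik5, Gabbr1, Gria1 and Gabra3). Of all genes with recovered reads 11.2% were highest in this library, and of those at or below 0 log2 CPM 28.9%. Of the 12 low genes 5, Gabrb2 and Gabra5 among them, were more than 10 times the next library there, which held for 4.52% of low genes in all. Both are named after their values were seen.

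Gabrb2, a beta subunit, had 2184 reads in this library and at most 75 in any other. Gabra5, an alpha subunit found mainly in the hippocampus, had 395 against at most 16. Grin2b had 676 reads against at most 195, and Gria1 1625 against at most 441. Another 6 of the 35 (Grm5, Gabrg1, Grik2, Grin3a, Gabra2 and Grid1) had their lowest CPM of all 22 libraries there. For Grin3a this was 4.17 CPM, and batch 3 as a whole was low for this gene, with 6.71 and 19.9 CPM in the other B6GFP_MD43 libraries and 8.24 to 22.6 in B6GFP_WT.

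Neuron markers were high in the same library, with a sum of 1957 CPM against 702 to 1210 in the others. Of the 11 markers 8 had their highest level there, with Tubb3 at 382 CPM against at most 62.8 elsewhere, Dcx at 353 against 35.5, Stmn2 at 210 against 21.3 and Neurod6 at 140.1 against 11.01. Syt1 was at 49.1 CPM against 45.8 in the next library. Map2, Nefl and Nefm were not highest there, with Map2 at 703 CPM inside the range of 588 to 1171 of the others, and Nefl and Nefm at 16.1 and 16.8 CPM against 26.0 and 48.7 in B6GFP_WT replicate 4. The next highest Tubb3, Stmn2 and Neurod6 levels were in batch 3 as well, in B6GFP_MD43 replicate 4 (62.8, 21.3 and 11.01 CPM) and B6GFP_WT replicate 2 (48.0, 13.4 and 8.16 CPM). The endothelial and mural sum was 15.2 CPM against at most 1.76, and the fibroblast sum 19.0 against at most 6.71. The NSC sum was 5454 CPM, inside the range of 4972 to 7374 of the others. The part of neurons or other cells in the low receptor genes was not tested.

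**Figure D5:**
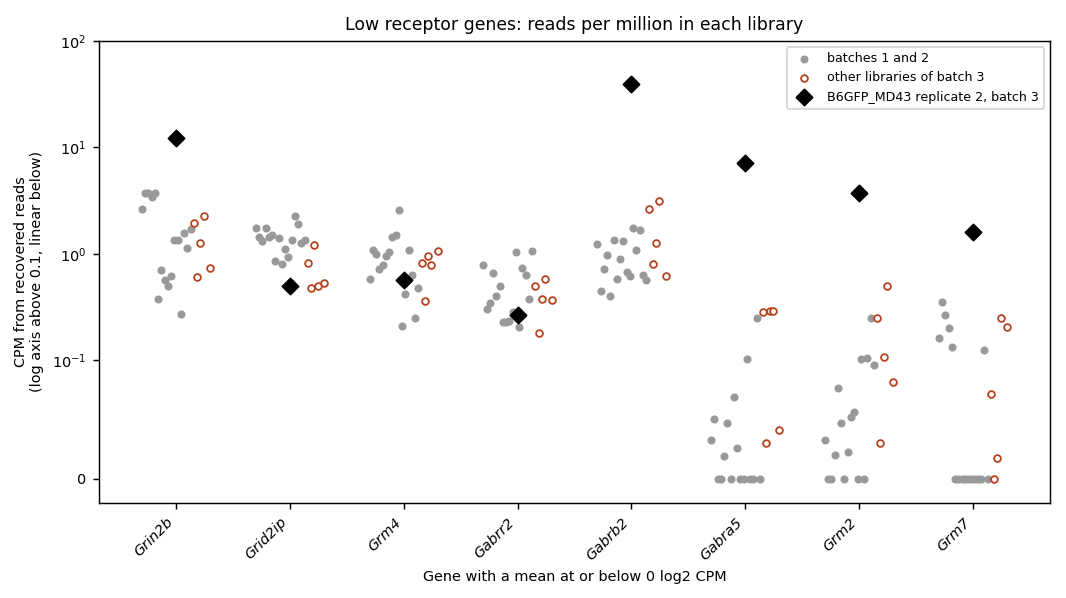
CPM of 8 of the low genes in each library, from recovered reads without batch correction, on an axis that is logarithmic above 0.1 and linear below. The B6GFP_MD43 library of replicate 2 in batch 3 is the highest point for 5 of these 8, with Gabrb2 at 39.1 and Gabra5 at 7.07 CPM.

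Genes that work with the receptors were examined as fixed lists, and none of their members passed in either genotype comparison. Of 14 auxiliary subunits of glutamate receptors, 5 were higher and 2 lower in B6GFP in wild type and 3 higher and 3 lower in MommeD43. The kainate receptor partners Neto1 and Neto2 were higher by 0.77 and 0.60 in wild type and by 0.81 and 0.63 in MommeD43. Shisa6, an AMPA receptor partner, was higher by 1.45 and 1.53, and Shisa9 had changes of -1.56 and -1.91. Of 20 scaffold and trafficking genes 2 were higher and 4 lower in wild type and 1 higher and 3 lower in MommeD43 (Grid2ip included), among them Homer2 with 0.44 and 0.36 and Pick1 with -0.41 and -0.46.

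Of 12 genes of glutamate transport and metabolism, 2 were higher and 5 lower in each genotype, with the glial uptake carriers Slc1a2 and Slc1a3 at -1.18 and -0.59 in wild type. Of 7 genes of GABA synthesis, transport and breakdown, 0 were higher and 4 lower in each genotype. Gad2, which makes GABA, had changes of -4.06 in wild type and -5.05 in MommeD43, and Abat, which breaks it down, of -1.28 and -1.10. The chloride importer Slc12a2 was higher by 0.50 and 0.62, and the chloride exporter in the list, Slc12a5, passed in neither genotype. Adar, an RNA editing enzyme, had changes of -0.23 and -0.30, and Adarb1, which edits the Gria2 transcript, passed in neither. The share of genes called between the strains over the whole table applies to these counts too.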

How the data were processed

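RNA of female mouse NSC lines was sequenced as polyA libraries. Per the labels and the study's methods, the authors used bcl2fastq, Trim Galore 0.4.4, HISAT2 2.0.5, GRCm38.p6 and limma 3.40.6, and corrected for batch. The deposited values are log2 CPM of 14922 genes (247 without a symbol) in 24 columns. Their batch correction added a constant for each gene and batch on the log2 scale, so values of every batch are shifted, batch 1 included. The constant is the same for all libraries of a batch, so differences within a batch are kept. 2 columns that equal the mean of their group mates were left out. Whole reads were recovered for 99.6% of genes (14868, within 0.001 read) and all 35 receptor genes, giving the depths (median 39.6 M, 9.60 M and 30.5 M reads in batches 1, 2 and 3).

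limma 3.58.1 (R 4.3.3) was fitted to the deposited log2 CPM of all genes and 22 libraries, with array quality weights (0.101 to 4.90), a trend, group and batch as fixed terms and the line as a block (correlation 0.0828). 5 comparisons were read from this fit (the allele within each strain, the strains within each genotype, and the difference of the allele's effect), each with its own Benjamini-Hochberg adjustment across the table. The p-values measure the weighted spread between libraries with the line as a block, on 16 residual degrees of freedom for 22 libraries of 17 lines. At this low correlation, repeat libraries of a line counted nearly as separate, so it is not the spread between lines alone. The labels give the lines as separate cultures. Some B6GFP lines, wild type and MommeD43 among them, share the first part of their line number, and whether they share an origin is not known here. With such lines as 1 block, the receptor genes past the threshold were 9 between wild-type strains (Gabbr2 was lost) and 13 between MommeD43 strains. The counts over all genes are not given here for that fit. With unit log2, count models were not the main test, and voom on recovered reads was an added alternative. Levels per length use GENCODE vM21 exon lengths and batch 1 only. Every member above 0 log2 CPM was named, as were low members past the threshold, and the other 8 by count. A few genes that the rule covers are not reported here. The members and lists were chosen with earlier results of these data known. 29 alternatives were planned and 4 were added after seeing the data. The test was checked on simulated data. Exons of 15 of the 35 genes share bases with another annotated gene, 10 of them on the opposite strand, for at most 13.5% of the exon bases.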

Additional observations from a re-analysis of the deposited data

Results flagged for a closer look

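Lines that stood apart from the others of their group were looked for in the 27 genes that the naming rule takes with Dixon's 95% limit, on the mean log2 CPM of each line, which flags about 1 in 20 groups by chance (5.4 of the 108 groups tested, with 5 found). Gria4 in B6GFP_WT replicate 4 was at 7.34, with the other lines at 5.86 to 6.04. Grin2c in FVB_WT replicate 4 was at 5.18, with the others at 4.55 to 4.67. Grm3 in FVB_MD43 replicate 4 was at 5.09, with the others at 4.35 to 4.40. In B6GFP_MD43 replicate 2, Gria1 was at 5.16 with the others at 1.46 to 1.76, and Gabra3 was at 2.63 with the others at 0.57 to 0.85. This last line held the library in which neuron markers were high, and their part in its Gria1 and Gabra3 levels was not tested. B6GFP_WT replicate 4, the line with the high Gria4 level, had a low quality weight and Grin2c at 2.62.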

How the results depend on the processing

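No change that passed the threshold reversed under those of the 33 alternatives that could fit it. All such changes were strain changes, which batch 2 alone and batch 3 alone, with 1 strain each, could not fit. Between these batches the uncorrected CPM kept the direction of the fit for 4 of 10 called genes in wild type and 6 of 13 in MommeD43. Of the fits of changes that had not passed, 350 of 4735 turned direction, and 3 of these passed there, among them Grid1 between the MommeD43 lines without FVB_MD43 replicate 2 (-0.31, adjusted p = 0.0391). The count of receptor genes past the threshold in wild-type strains was 10, with 3 without quality weights and 8 in batch 1 only. Over all 14922 genes these counts were 6131, 1259 and 5095. In MommeD43 strains the receptor count was 13, with 2 without quality weights, 8 in batch 1 only and 32 with all 24 columns, which include the averaged ones. Over all genes, the first 3 of these counts were 5126, 1017 and 3596. For MommeD43 against wild type in FVB the receptor count was 0, with 7 with all 24 columns. With voom without the line block the receptor count was 1 (Gria4), against 96 of 14868 genes. In B6GFP the receptor count was 0, and 2 with all 24 columns. Leaving out 1 line in turn gave 8 to 12 in wild-type strains, 11 to 19 in MommeD43 strains, 0 to 7 in FVB, and 0 to 0 for B6GFP and for the difference between strains. The counts over all genes are not given here for these fits or for all 24 columns. Batch 1 alone holds fewer libraries, and for the other settings the cause was not tested. Centring each library on its median ended the MommeD43 calls of Grin2c and Gria2 (adjusted p = 0.0582 and 0.0569), and a pseudocount of 1 CPM that of Grm7 (adjusted p = 0.213).

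Replicate numbers were not used as pairs in the main fit. Same-number correlations of deviations ran from -0.459 to -0.0165 in FVB (mean -0.204) and from -0.402 to 0.382 in B6GFP (mean -0.043). Between different numbers they ran from -0.412 to 0.446 in FVB (mean -0.062) and from -0.559 to 0.622 in B6GFP (mean -0.169). With 5 same-number pairs per strain and ranges that overlap, these values cannot decide whether the numbers pair the samples. With a replicate block the counts were 10 in wild-type strains, 12 in MommeD43 strains, 2 in FVB (Gabra4 and Gria4), 0 in B6GFP and 0 for the difference. The counts over all genes are not given here for this fit, so these are not read as particular to receptor genes. In wild type Gabbr2 was lost and Gria1 gained, and in MommeD43 Grin2c was lost. Depth limits the low genes most, since 1 read in batch 2 is worth at least -3.45 log2 CPM before batch correction.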
